A study of Oryza sativa with 8 samples.

Results

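NAC proteins are plant-specific transcription factors that bind DNA through a conserved N-terminal NAC domain, named after the NAM, ATAF and CUC proteins, and activate or repress transcription through a variable C-terminal part. A stress-responsive group of them is induced in rice by drought, salt, cold or abscisic acid, the hormone of water deficit, and several of its members raise salt or drought tolerance when overexpressed. Other NAC factors promote leaf senescence or hypersensitive cell death. The 10 genes described here were taken by their identifiers, out of 55797 genes with a single locus in every library, and all 10 were found.

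RNA was sequenced from roots and leaves of rice seedlings (Oryza sativa, cultivar Nipponbare) aged 2 weeks and raised in liquid culture. The 4 groups have 2 libraries each: roots of plants given 150 mmol NaCl (a volume is not stated), roots of untreated plants, leaves of plants given the same NaCl, and leaves of untreated plants, all collected 24 hours after the treatment began. Libraries titled as root carry shoot as their tissue, and those titled as leaf carry seedling, so the titles were taken for the grouping; the tissues were not checked against named marker genes. The labels call the replicates biological and do not give the number of plants behind a library.

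The names given are those by which these identifiers are known, since the deposited tables pair no identifier with a name. The first set holds genes linked to stress tolerance: SNAC1 (LOC_Os03g60080, chromosome 3, 34166099 to 34167546), NAC6, also called SNAC2 (LOC_Os01g66120, chromosome 1, 38398517 to 38401533), NAC5 (LOC_Os11g08210, chromosome 11, 4299149 to 4301783) and NAC10 (LOC_Os11g03300, chromosome 11, 1233928 to 1236052). ONAC045 (LOC_Os11g03370, chromosome 11, 1269314 to 1271303) and ONAC022 (LOC_Os03g04070, chromosome 3, 1862352 to 1864245) also raise stress tolerance when overexpressed. NAC2 (LOC_Os04g38720, chromosome 4, 22994552 to 22996740) and NAP (LOC_Os03g21060, chromosome 3, 11973970 to 11976426) promote leaf senescence. NAC4 (LOC_Os01g60020, chromosome 1, 34692830 to 34694391) induces hypersensitive cell death, and NAC3 (LOC_Os07g12340, chromosome 7, 6967999 to 6969311) is linked to abscisic acid responses. Coordinates are those of the deposited loci, whose genome build is not given in the sources used here. In the RefSeq gene table of assembly ASM3414082v1, 6 of the 10 names were found, each on the same chromosome as the deposited locus. The names of SNAC1, NAC10, NAP and ONAC022 were not found there, so these were not checked in this way. The gene spans there were 1313 bases for NAC3 and 1562 bases for NAC4, the same as the deposited loci, and 2638 bases for NAC6, against 3017 in the deposited locus.

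The unit is FPKM, which corrects fragments for the length of the transcript and the size of the library, so it allows levels to be compared between genes. All 80 values of the 10 genes were above 1 FPKM, the lowest being 3.07 and the highest 606, so all 10 passed the filter on low values. If the deposited confidence bounds cover counting error only, they imply 9060000 to 10700000 fragments per library. For these genes they imply between 49.3 and 6362 fragments per value, if the bounds cover counting error only. For NAC6 at least they did not. It had 2073 implied fragments at 532 FPKM in leaf salt replicate 1 and 1678 at 219 FPKM in leaf control replicate 1. Its bounds were thus wider than counting error, and its implied fragments are not counts. The totals per library sum such values over all genes, so they are not counts either. Fold changes given with a test are differences of log2(FPKM + 1) from limma, fitted over 23776 genes; a gene is said to rise or fall where its adjusted p (Benjamini-Hochberg over those genes) is under 0.05. Folds of group means are given on the FPKM scale without a pseudocount. All results are levels in a whole tissue, in which fewer cells of a type and less RNA per cell cannot be told apart.

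NAC6 and SNAC1 had the highest levels of the 10 genes in all 8 libraries, with SNAC1 above NAC6 only in root control replicate 1, and NAC3 came next in control roots. Of the summed FPKM of the 10 genes, NAC6 held 42.1% and 39.6% in salt-treated roots, 24.2% and 29.9% in control roots, 53.0% and 57.6% in salt-treated leaves, and 43.2% and 48.0% in control leaves. SNAC1 held 18.6% and 25.9% in salt-treated roots, 35.2% and 28.4% in control roots, 30.3% and 23.7% in salt-treated leaves, and 39.0% and 32.8% in control leaves. The sum itself was 832 and 781 FPKM in salt-treated roots, 1221 and 737 in control roots, 1003 and 1053 in salt-treated leaves, and 507 and 425 in control leaves. The 2 control root libraries thus lay on either side of both salt-treated ones, while both salt-treated leaf libraries were above both control leaf libraries.

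**Figure D1:**
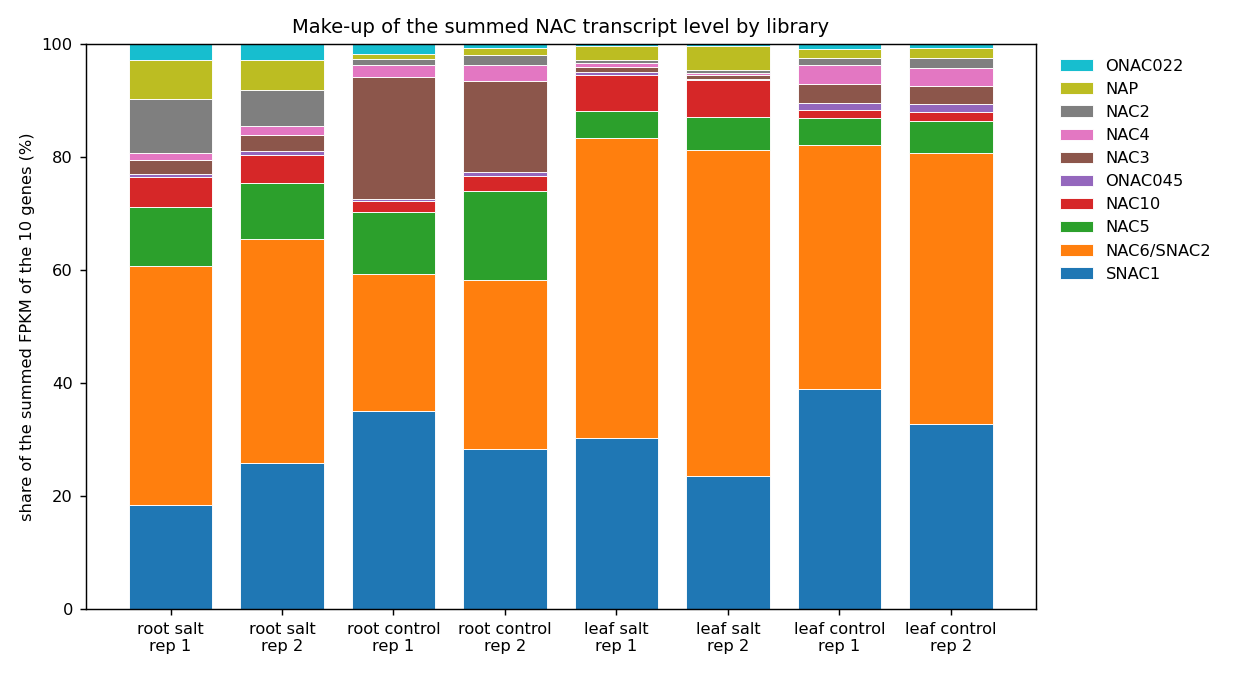
Stacked bars give the share (%) of the summed FPKM of the 10 NAC genes held by each gene, 1 bar per library in the order root salt, root control, leaf salt, leaf control. NAC3 fills 21.6% and 16.0% of the bars of control roots and at most 3.45% of any other bar. NAC6 fills more than any other gene in every bar except that of root control replicate 1, where SNAC1 fills the most.

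In leaves, salt raised the transcripts of 4 of the 10 genes (NAC10, NAP, NAC6 and NAC5) and lowered those of 2 (NAC4 and ONAC045). Across all tested genes 33.8% were called, 14.8% higher and 18.9% lower, in the same contrast. The median change of the 10 genes was 0.25 on the log2 scale, against -0.05 for all tested genes. The libraries of salt and control leaves did not overlap for any of the 10 genes, a separation that 69.3% of all tested genes also showed.

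NAC10, which enlarges roots and improves drought tolerance when expressed in roots, had the highest fold change of the set in leaves. It had 64.3 and 69.2 FPKM in salt-treated leaves, against 6.78 and 6.90 FPKM in control leaves. The fold of means was 9.76, and the log2 change of 3.11 ± 0.11 (SE, limma adjusted p = 2.32e-05) was the 53rd highest of 23776. Salt-treated leaves thus carried more NAC10 transcript than any root library, although control leaves carried the least. NAC10 lies on the short arm of chromosome 11, near ONAC045, with 33.3 kb and 5 annotated loci between them, none of which passed the filter. This end of the chromosome is duplicated on chromosome 12, and how the authors assigned fragments shared with near-identical copies is not given in the sources used here, so the values of both genes may include fragments of their copies.

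NAP, an abscisic acid-induced promoter of chlorophyll breakdown in ageing leaves, had 25.7 and 45.6 FPKM in salt-treated leaves, against 7.57 and 7.57 FPKM in control leaves. Both salt-treated leaf libraries were far above the controls but 1.77-fold apart. Its log2 change was 2.04 ± 0.28 (SE, limma adjusted p = 0.00203). NAC6 had 532 and 606 FPKM in salt-treated leaves, against 219 and 204 FPKM in control leaves, a 2.69-fold higher mean. The log2 change was 1.42 ± 0.16 (SE, limma adjusted p = 0.00103), and at 606 FPKM NAC6 reached the highest value of any of the 10 genes in any library. NAC5, an abscisic acid-inducible gene, had 48.9 and 60.4 FPKM in salt-treated leaves, against 24.3 and 23.6 FPKM in control leaves. Its log2 change was 1.15 ± 0.13 (SE, limma adjusted p = 0.000917).

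NAC4 fell in leaves, with 5.97 and 3.68 FPKM in salt-treated leaves, against 17.1 and 13.4 FPKM in control leaves, a mean 3.16-fold lower (log2 change -1.50 ± 0.22, SE, limma adjusted p = 0.00281). ONAC045, present at low levels throughout, had 3.94 and 3.16 FPKM in salt-treated leaves, against 6.04 and 6.06 FPKM in control leaves. Its log2 change was -0.64 ± 0.16 (SE, limma adjusted p = 0.0229). This call was lost without leaf salt replicate 2 (adjusted p = 0.123), without leaf control replicate 1 (0.0941) and without leaf control replicate 2 (0.0940), all in limma.

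The other 4 genes did not pass the test in leaves. SNAC1, which is induced in guard cells by drought, had 304 and 249 FPKM in salt-treated leaves, against 198 and 139 FPKM in control leaves. The libraries did not overlap, but the log2 change of 0.72 ± 0.35 (SE) had a limma adjusted p of 0.160. NAC3 had 10.2 and 5.89 FPKM in salt-treated leaves, against 17.5 and 13.5 FPKM in control leaves (log2 change -0.90 ± 0.39, SE, limma adjusted p = 0.123). NAC3 passed in leaves when root control replicate 1 or root control replicate 2 was left out, with adjusted p = 0.0364 and 0.0361 in limma, where the spread of a gene is estimated over all groups. NAC2 had 5.19 and 6.03 FPKM in salt-treated leaves, against 6.11 and 7.38 FPKM in control leaves. ONAC022 had 3.20 and 3.07 FPKM in salt-treated leaves, against 4.94 and 3.31 FPKM in control leaves.

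In roots, salt raised 3 of the 10 genes (NAP, NAC2 and NAC10) and lowered 3 (NAC3, NAC4 and NAC5). Across all tested genes 43.4% were called, 29.1% higher and 14.4% lower. This split depended on the scaling: 6918 genes were higher and 3412 lower as deposited, 5001 and 4766 with 75th percentile scaling, and 4711 and 5262 with quantile normalization. The median change of the 10 genes was 0.083 on the log2 scale, against 0.127 for all tested genes. That median of all genes was 0 once libraries were scaled to their 75th percentile, a shift of 0.127, and no called change of the 10 genes turned sign under that scaling or under quantile normalization. The libraries of salt-treated and control roots did not overlap for 9 of the 10 genes, the exception being ONAC045, and for 71.1% of all tested genes.

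NAC2, a promoter of senescence and of chlorophyll breakdown in leaves, had 79.3 and 48.9 FPKM in salt-treated roots, against 13.1 and 13.2 FPKM in control roots. Both salt-treated libraries were well above the controls, which were nearly equal, and the mean was 4.87-fold higher. The log2 change was 2.16 ± 0.22 (SE, limma adjusted p = 0.000508). NAP had 57.5 and 41.6 FPKM in salt-treated roots, against 11.1 and 8.37 FPKM in control roots, with a log2 change of 2.23 ± 0.28 (SE, limma adjusted p = 0.00115). NAC10 had 44.1 and 38.3 FPKM in salt-treated roots, against 22.5 and 19.1 FPKM in control roots, a log2 change of 0.95 ± 0.11 (SE, limma adjusted p = 0.000862).

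NAC3 fell to 21.1 and 22.2 FPKM in salt-treated roots, against 264 and 118 FPKM in control roots. The mean was 8.83-fold lower, and the log2 change of -2.97 ± 0.39 (SE, limma adjusted p = 0.00134) was the 42nd lowest of 23776. The control root libraries were 2.24-fold apart, but the salt-treated ones lay far below both. Without root control replicate 1 the log2 change was -2.40, and without root control replicate 2 it was -3.55, and both passed the test. NAC4 had 10.6 and 13.5 FPKM in salt-treated roots, against 24.7 and 21.3 FPKM in control roots (log2 change -0.88 ± 0.22, SE, limma adjusted p = 0.0179). This call was lost without root salt replicate 1 (limma adjusted p = 0.102) and without root control replicate 1 (0.0829). NAC5 had 87.3 and 77.5 FPKM in salt-treated roots, against 134 and 116 FPKM in control roots, a log2 change of -0.59 ± 0.13 (SE, limma adjusted p = 0.0104). It missed the threshold without root salt replicate 2 (limma adjusted p = 0.0568) or root control replicate 1 (0.0529).

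SNAC1, NAC6, ONAC022 and ONAC045 did not pass the test in roots. SNAC1 had 154 and 202 FPKM in salt-treated roots, against 430 and 209 FPKM in control roots. Only root control replicate 1 stood clear of the other 3 root libraries. The log2 change was -0.76 ± 0.35 (SE, limma adjusted p = 0.124), and it was -1.28 without root control replicate 2 (limma adjusted p = 0.0166) and -0.24 without root control replicate 1. ONAC022 had 23.2 and 22.3 FPKM in salt-treated roots, against 21.8 and 5.53 FPKM in control roots. Root control replicate 1 was thus close to both salt-treated libraries and root control replicate 2 was not. The log2 change of 0.96 ± 0.51 (SE, limma adjusted p = 0.178) became 1.86 without root control replicate 1 (limma adjusted p = 0.00243) and 0.060 without root control replicate 2. NAC6 had 351 and 309 FPKM in salt-treated roots, against 295 and 221 FPKM in control roots, with a log2 change of 0.37 ± 0.16 (SE, limma adjusted p = 0.118). The change was 0.57 without root control replicate 1 (limma adjusted p = 0.0340), 0.16 without root control replicate 2 (0.476) and 0.18 with 75th percentile scaling (0.411). ONAC045 had 4.07 and 5.50 FPKM in salt-treated roots, against 5.25 and 5.97 FPKM in control roots.

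**Figure D2:**
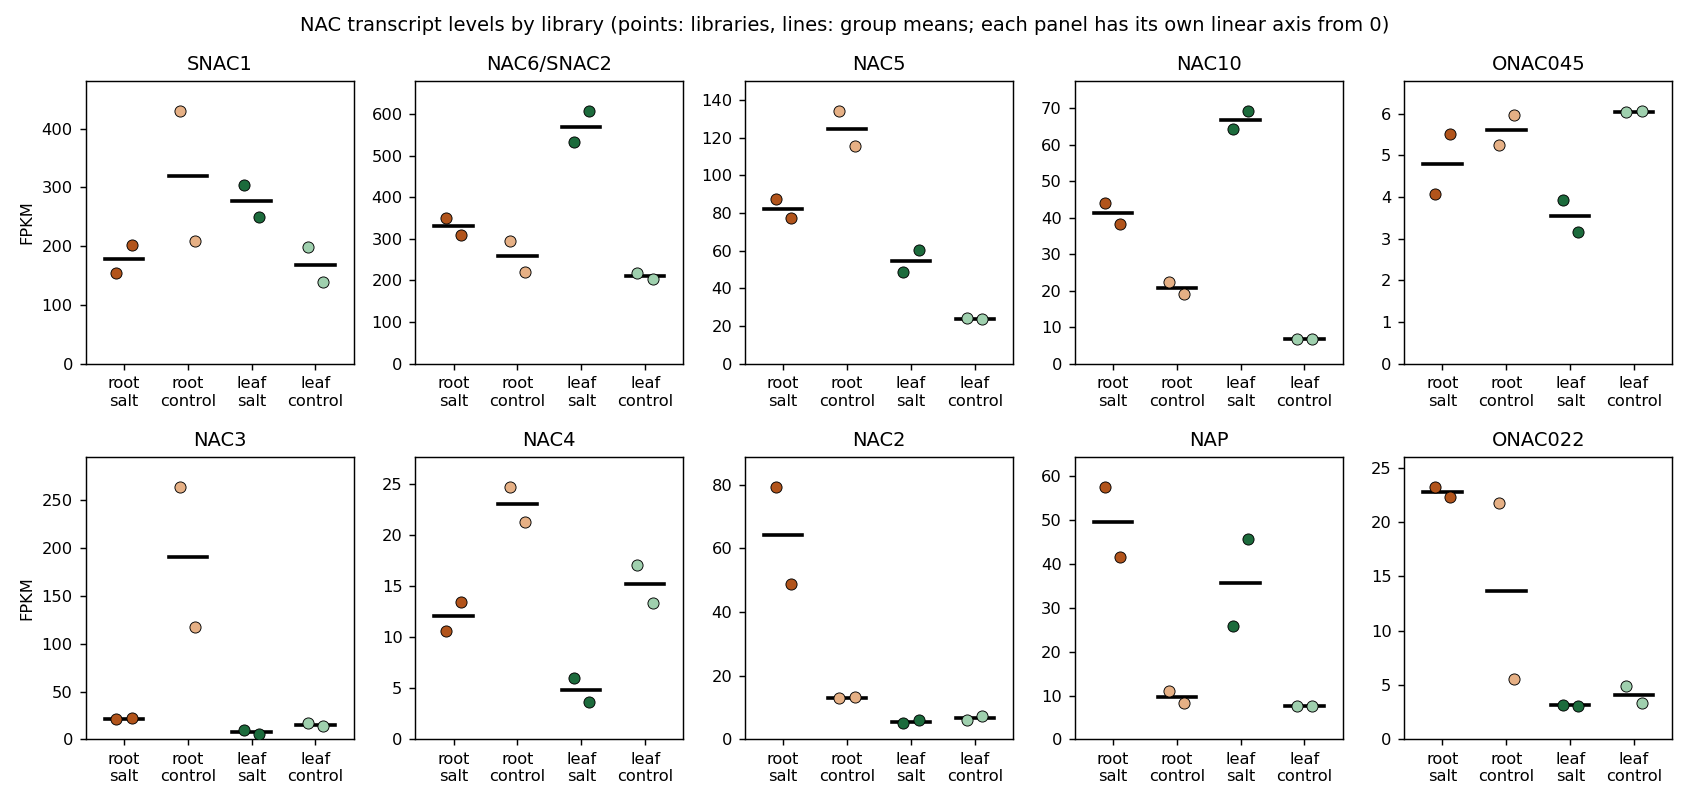
Each panel plots the FPKM of 1 NAC gene (linear axis from 0) in the 2 libraries of each group, root salt, root control, leaf salt and leaf control, with a line at the group mean. NAC2 stands out in salt-treated roots (79.3 and 48.9 FPKM), NAC3 in control roots (264 and 118 FPKM), and NAC10 in salt-treated leaves (64.3 and 69.2 FPKM).

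The control root libraries differed from each other for several of these genes. In control roots 3 of the 10 genes (SNAC1, NAC3 and ONAC022) were at least 2-fold apart between replicates, and 3.98% of all genes with 1 FPKM or more in both libraries were. No such gene of the 10 was found in the other 3 groups. The deposited confidence bounds of the replicates overlapped for 5 of 10 genes in salt-treated roots and 4 in control roots. In leaves they overlapped for 4 with salt and 9 without. Elsewhere the replicates differed by more than these bounds. The overlap was not counted over all tested genes, and it depends on the level of a gene. Bounds of SNAC1 did not overlap at a 1.22-fold difference in salt-treated leaves, while those of ONAC045 did at 1.35-fold in salt-treated roots. Root control replicate 1 was the higher one for 8 of the 10 genes, while it was the higher one for 42.7% of all tested genes. This library also held more leaf transcripts: 176 genes abundant in leaves (at least 100 FPKM in both leaf controls and under 2% of that on average in roots) had a median of 0.264% and 0.368% of their leaf level in salt-treated roots, against 1.19% in root control replicate 1 and 0.353% in root control replicate 2. The summed FPKM of these 176 genes was 467 and 640 in salt-treated roots, against 1818 and 623 in control roots, and between 1 and 4 of them were at 0 in a library. A share of 1.19% of the control leaf level would make up at most 1.37% of the value of any of the 10 genes in root control replicate 1. It would be 0.47% for SNAC1, 0.070% for NAC3 and 0.23% for ONAC022. The part of leaf transcripts in the differences between the control root libraries was not tested.

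**Figure D3:**
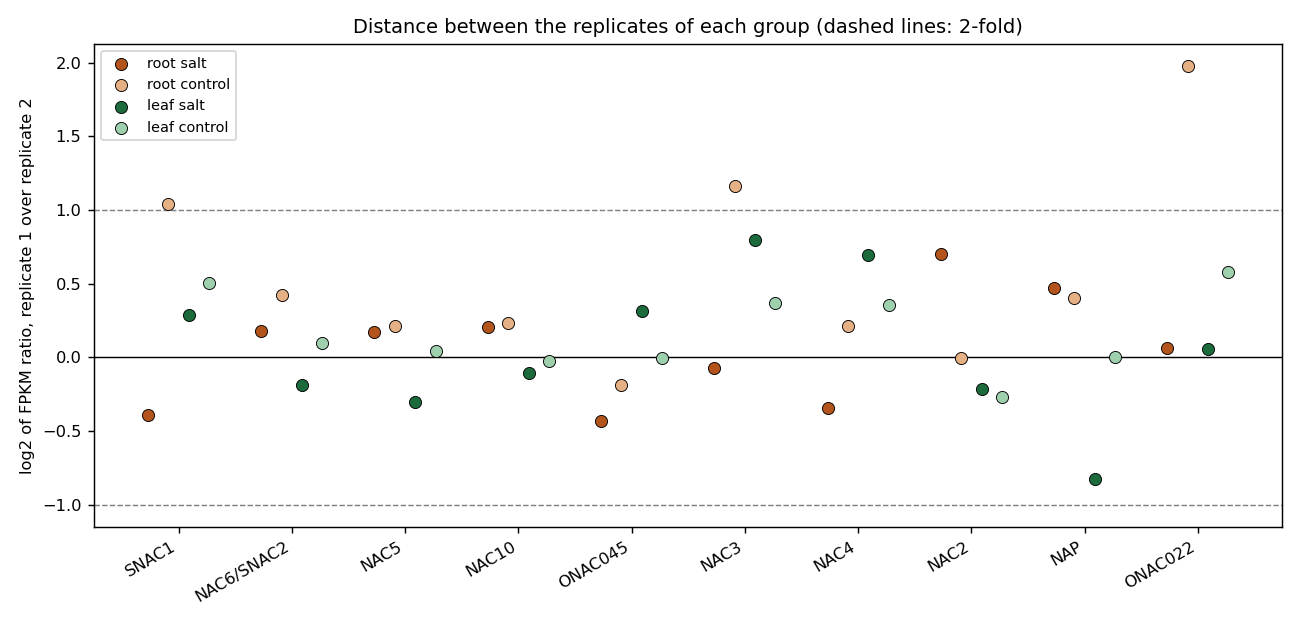
Points give the log2 ratio of replicate 1 over replicate 2 (FPKM) for each NAC gene in root salt, root control, leaf salt and leaf control, with dashed lines at 2-fold. Only SNAC1, NAC3 and ONAC022 in control roots lie beyond a dashed line, the farthest being ONAC022 with a 3.94-fold difference.

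The salt change itself was called different between root and leaf for 5 of the 10 genes, by an interaction term for tissue and treatment (root minus leaf). It was lower in root for 4 (NAC10, NAC3, NAC5 and NAC6) and higher in root for 1 (NAC2). Across all tested genes 32.8% were called in this contrast, 9.71% lower in root and 23.1% higher. In numbers, 2309 genes were lower and 5496 higher as deposited, but 3392 and 4138 with 75th percentile scaling, and 3852 and 3619 with quantile normalization, so the share of lower calls depended on the scaling. The median difference of the 10 genes was -0.43, against 0.19 for all tested genes, and that of all genes was 0.028 with 75th percentile scaling and -0.054 with quantile normalization.

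For NAC2 the change was 2.16 in root and -0.23 in leaf on the log2 scale, 2.39 ± 0.31 apart (SE, limma adjusted p = 0.00233). For NAC10 it was 0.95 in root and 3.11 in leaf, a difference of -2.16 ± 0.16 (SE, limma adjusted p = 0.000463), so a gene that rose in both tissues rose less in root. For NAC5 it was -0.59 in root and 1.15 in leaf, a difference of -1.74 ± 0.18 (SE, limma adjusted p = 0.00124); NAC5 was the gene of the 10 that was called in opposite directions. For NAC6 it was 0.37 in root and 1.42 in leaf, a difference of -1.06 ± 0.23 (SE, limma adjusted p = 0.0151). The NAC6 difference missed the threshold without leaf salt replicate 2 (limma adjusted p = 0.0543) or leaf control replicate 2 (0.0526).

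For NAC3 the change was -2.97 in root and -0.90 in leaf, a difference of -2.08 ± 0.55 (SE, limma adjusted p = 0.0281). This call was lost in limma without root salt replicate 1 (adjusted p = 0.0807), root salt replicate 2 (0.0724), leaf salt replicate 1 (0.0907), leaf control replicate 1 (0.0608) or leaf control replicate 2 (0.0911), and without a filter on low values (0.0703). For SNAC1, with changes of -0.76 in root and 0.72 in leaf, the difference of -1.48 ± 0.49 (SE, limma adjusted p = 0.0590) did not pass. It passed with 75th percentile scaling (limma adjusted p = 0.0429), with the replicate number as a block (0.0496) and, at -2.00, without root control replicate 2 (0.0120). Without root control replicate 1 it was -0.97 (limma adjusted p = 0.0910). For NAP, with 2.23 in root and 2.04 in leaf, the difference was 0.19 ± 0.40 (SE, limma adjusted p = 0.753). Differences of ONAC045, NAC4 and ONAC022 were 0.44, 0.62 and 1.25, and none passed. That of ONAC022 was 2.15 without root control replicate 1 (limma adjusted p = 0.00529) and 0.35 without root control replicate 2 (0.363).

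**Figure D4:**
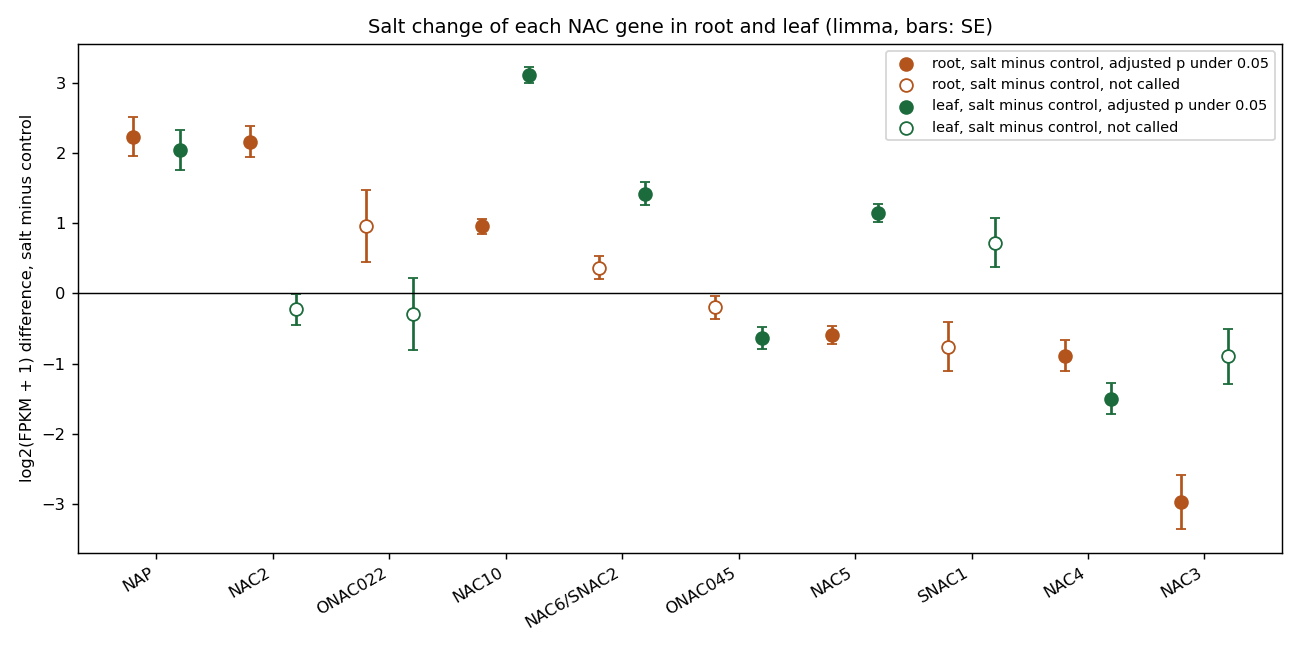
Points give the salt minus control difference of log2(FPKM + 1) for each NAC gene in root and leaf with its SE from limma, filled where the adjusted p is under 0.05. NAP lies at 2.23 in root and 2.04 in leaf, whereas NAC2 is at 2.16 in root and -0.23 in leaf and NAC5 at -0.59 in root and 1.15 in leaf.

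Without salt, 4 of the 10 genes were higher in root than in leaf (NAC3, NAC5, NAC10 and NAC2) and none was called lower, among 39.1% higher and 28.3% lower of all tested genes (67.4% in all). At an unadjusted limma p under 0.05, 7 of the 10 were higher and none lower, among 40.8% higher and 29.4% lower of all tested genes. The libraries of control roots and control leaves did not overlap for any of the 10 genes, nor for 84.4% of all tested genes. NAC3 had the widest gap, with 264 and 118 FPKM in control roots, against 17.5 and 13.5 FPKM in control leaves, a mean 12.3-fold higher (log2 difference 3.44 ± 0.39, SE, limma adjusted p = 0.000218). NAC5 had 134 and 116 FPKM in control roots, against 24.3 and 23.6 FPKM in control leaves (log2 difference 2.33 ± 0.13, SE, limma adjusted p = 6.54e-06). NAC10 was 1.47 higher on the log2 scale (SE 0.11, limma adjusted p = 2.84e-05). NAC2 was 0.88 higher (SE 0.22, limma adjusted p = 0.0102), and it missed the threshold without leaf control replicate 1 (limma adjusted p = 0.0632). The 4 called genes became 7 without root control replicate 2, when SNAC1, NAC6 and ONAC022 also passed, and were 4 without root control replicate 1.

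Under salt, 7 of the 10 genes differed between the tissues, 5 of them higher in root and 2 lower, among 47.7% higher and 24.5% lower of all tested genes (72.2% in all). The libraries of the tissues did not overlap for 9 of the 10 genes, NAP being the exception, and for 86.5% of all tested genes. NAC2 had 79.3 and 48.9 FPKM in salt-treated roots, against 5.19 and 6.03 FPKM in salt-treated leaves, an 11.4-fold higher mean (log2 difference 3.26 ± 0.22, SE, limma adjusted p = 1.48e-05). ONAC022 had 23.2 and 22.3 FPKM in salt-treated roots, against 3.20 and 3.07 FPKM in salt-treated leaves, a 7.25-fold higher mean (log2 difference 2.52 ± 0.51, SE, limma adjusted p = 0.0037). NAC3, NAC4 and NAC5 were also higher in root, by 1.36, 1.18 and 0.59 on the log2 scale. The NAC3 call was lost without root salt replicate 1 (limma adjusted p = 0.0609), root salt replicate 2 (0.0714) or leaf salt replicate 2 (0.0999). NAC6 and NAC10 were lower in root than in leaf, by log2 differences of -0.78 ± 0.16 and -0.69 ± 0.11 (SE, limma adjusted p = 0.00422 and 0.0012). NAC10 was thus called higher in root without salt and lower in root under salt. SNAC1 had a log2 difference of -0.64 ± 0.35 (SE) and did not pass (limma adjusted p = 0.141). With only the salt groups in the fit SNAC1 passed (limma adjusted p = 0.0315). ONAC045 and NAP, with differences of 0.34 and 0.50, did not pass either (limma adjusted p = 0.0960 and 0.147). The median difference of all tested genes in this contrast was 0.35 as deposited, 0.17 with 75th percentile scaling and 0.10 with quantile normalization. The numbers of all genes higher and lower in root moved with it, from 11346 and 5819 as deposited to 9528 and 6764 with the first scaling and 8965 and 7266 with the second.

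The order of the group means differed from gene to gene. NAC6 and NAC10 were highest in salt-treated leaves and lowest in control leaves, with salt-treated roots above control roots in between and no overlap of libraries between neighbours. NAC5, NAC3, NAC4 and SNAC1 had their highest mean in control roots, though SNAC1 there overlapped with salt-treated leaves. NAC2, NAP and ONAC022 had their highest mean in salt-treated roots, and for NAP these libraries overlapped with salt-treated leaves. ONAC045 had its lowest mean in salt-treated leaves and its highest in control leaves, with 3.55 ± 0.55 FPKM in salt-treated leaves, against 6.05 ± 0.012 FPKM in control leaves (SD, n = 2).

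Likeness of pattern was measured as the root mean square difference of log2(FPKM + 1), centred on each gene's own mean, over the 8 libraries. NAC10 and NAP were nearest to each other (0.62), as were NAC2 and ONAC022 (0.67), SNAC1 and NAC6 (0.57), and NAC4 and ONAC045 (0.56). The value for SNAC1 and NAC6 is above the 0.49 and 0.55 by which these genes themselves varied, and that for NAC4 and ONAC045 is above the 0.27 of ONAC045, so neither pair is closer than a flat profile would be to SNAC1, NAC6 or ONAC045. NAC3 was the farthest of the 10 from 6 of the others, up to 2.38 from NAP. NAP had the largest mean absolute salt change over both tissues (2.14), and the tested genes outside the set most like it were LOC_Os06g10530 (chromosome 6, 5431526 to 5432214), at 0.22, and LOC_Os01g18220 (chromosome 1, 10200476 to 10203694), at 0.22. LOC_Os06g10530 had 13.6 and 15.1 FPKM in salt-treated roots, against 2.54 and 1.98 FPKM in control roots, and 9.24 and 10.9 FPKM in salt-treated leaves, against 1.44 and 1.51 FPKM in control leaves. The files and the reference table give no name for either.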

How the data were processed

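For each gene and library the authors deposited an FPKM and its confidence bounds, in the gene tracking format of Cufflinks, per the file headers. TopHat2 2.0.13, Cufflinks 2.2.1 and Cuffdiff were used, per the submitters' processing notes; build, annotation and strandedness were not found in the sources. Genes with several loci were left out, and starts are printed 1-based.

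From the deposited FPKM, genes reaching 1 FPKM in at least 2 of 8 libraries entered a test on log2(FPKM + 1) with limma 3.58.1 in R 4.3.3, using 4 group means, moderated variances with a trend on the mean, and Benjamini-Hochberg adjustment over 23776 genes. The square of 2 × FPKM divided by the distance to the upper bound gave implied fragments. All 10 genes are named; likeness was measured over the 8 libraries, and the tested genes nearest to the gene with the largest salt change are named by identifier. None of the identifiers was found in the reference table, so no list of other NAC genes was used and no sequence is shown. The genes and lists were chosen with earlier results of these data known. Alternatives covered the pseudocount, the filter, the scaling, the groups in the fit, a replicate block, the variance model and each library left out.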

Additional observations from a re-analysis of the deposited data

Results flagged for a closer look

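For 5 of the 10 genes the response to salt was not the same in both tissues by the interaction term in limma, which called 32.8% of all tested genes. The differences, root minus leaf on the log2 scale, were 2.39 for NAC2, -1.06 for NAC6, -1.74 for NAC5, -2.08 for NAC3 and -2.16 for NAC10. Leaving out a single library ended the call for NAC3 (5 of 8 libraries) and NAC6 (2 of 8), but for none of the other 3.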

How the results depend on the processing

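Over 50 results (10 genes in 5 contrasts) and up to 17 alternatives each, 28 were called. Of these, 21 kept direction and call in all alternatives, 7 lost the call in at least 1 and none turned sign. The 5 contrasts come from the same 4 group means, so the results are not separate. Of all tested genes, 32.8% to 72.2% were called in a contrast, and how many kept their call in all alternatives was not counted. Of the 22 results not called, 13 passed in at least 1 alternative and 1 turned sign. That was the NAP difference between tissues, 0.19, which was -0.0094 with 75th percentile scaling and -0.0016 with quantile normalization, and ran from -0.21 to 0.59 with single libraries left out. With single libraries left out, the number of the 10 genes called ranged from 3 to 6 for the difference between tissues (5 with all libraries; 3 without leaf control replicate 2) and from 3 to 7 for root against leaf without salt (4 with all libraries; 7 without root control replicate 2). Over all tested genes these counts were 5675 without leaf control replicate 2, against 7805, and 14383 without root control replicate 2, against 16021. The causes were not tested. Calls over all tested genes in leaf numbered 8027 with all libraries, and they fell by a similar extent whichever leaf library was left out.

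The labels share replicate numbers across groups but do not say that a number marks a shared batch. Replicate differences correlated across genes at 0.213 between root salt and root control and at -0.021 between leaf salt and leaf control. With the replicate number as a block, 6 of the 10 genes were called in leaf, 6 in root and 6 for the difference. For root against leaf, 5 were called without salt and 7 under salt. Among all 23776 tested genes, the fit with the block called 7778 in leaf, 10012 in root and 7484 for the difference. For root against leaf that fit called 15962 of all tested genes without salt and 17169 under salt. The block added SNAC1 for the difference (limma adjusted p = 0.0496) and ONAC022 for root against leaf without salt (0.0415). A fit with only the groups compared is not possible for the difference, which uses all 4. The deposited bounds of replicates overlapped for 4 of 10 genes in control roots, 4 in salt-treated leaves, 5 in salt-treated roots and 9 in control leaves. That overlap depends on the level of a gene and was not counted over all tested genes.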

Other observations

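The genes sat at different places among the 23776 tested genes of a library. By FPKM, SNAC1 and NAC6 were above the 97th percentile in all 8 libraries. NAC10 was at the 86.9th and 84.7th percentile in salt-treated roots, at the 76.5th and 72.8th in control roots, at the 92.8th and 93.4th in salt-treated leaves and at the 47.7th in both libraries of control leaves. NAC2 was at the 93.8th and 88.6th percentile in salt-treated roots and at the 64.0th and 63.9th in control roots, while its leaf libraries were between the 44.0th and the 49.3rd.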
